A study of Mus musculus with 69 samples.

Results

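The late phase of the IL-4 response was examined in C57 bone marrow-derived macrophages (BMDMs), as the change in RNA between 6 and 24 hours of IL-4. The comparison rests on 4 of the 69 libraries of the series, chosen by their titles: the 2 C57 time-course libraries at 24 hours and the 2 at 6 hours. The cells came from the marrow of C57BL/6J mice, which the methods give as healthy females 8 to 12 weeks old, and by the labels were differentiated for 7 days with M-CSF. IL-4 was given at 20 ng/ml, and the same time course holds 2 basal and 2 1-hour libraries of C57 and 8 libraries of SPRET/EiJ (SPRET) macrophages. Separate libraries of Egr2 fl/fl mice (Egr2flfl, floxed without Cre), of LyzM-Cre Egr2 fl/fl mice (Egr2MKO, in which a Cre active in myeloid cells deletes Egr2) and of C57 macrophages from a 5-strain experiment (3 basal, 3 at 24 hours) were used beside them. The labels and methods do not say at which hour the basal cultures were harvested. No untreated culture is labelled as matching 6 or 24 hours, so time with IL-4 and time in culture cannot be told apart. The methods call the libraries biological replicates without saying whether those of a group came from separate mice or cultures. P-values measure the spread between libraries of a group, pooled over all libraries fitted together and not only the 4 compared.

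IL-4 binds a receptor that signals through JAK kinases and the transcription factor STAT6, and in macrophages it brings about the alternatively activated state. A rapid wave of direct targets, among them the inhibitor Socs1 and the factor Egr2, is followed by a slower wave that needs newly made factors. Slow genes of this state include chitinase-like proteins, matrix proteases and lipid-handling genes, and arginine metabolism is its best known enzymatic feature.

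Total tags were 24.0 M and 5.92 M at 24 hours and 16.6 M and 8.87 M at 6 hours. Values are TPM, the reads of a gene scaled to its length and to the library, and differences are on the log2(TPM + 1) scale, which understates the change of low genes. All 10 macrophage markers on the list (Csf1r, Cd68, Lyz2 and others) were above 1 TPM in at least 1 of the 4 libraries and summed to between 26559 and 28457 TPM at 6 hours and between 21994 and 22922 TPM at 24 hours. Markers of B cells summed to at most 1.36 TPM and those of T and NK cells to at most 1.08 TPM. Of the neutrophil markers, 11 of 12 were under 1 TPM in all 4 libraries, with S100a8 the exception. Dendritic cell markers summed to between 414 and 550.4 TPM, nearly all of it Bst2, with the other 7 of 8 under 1 TPM. Erythroid and megakaryocyte markers summed to between 361 and 407 TPM, nearly all of it Pf4, with 8 of 10 under 1 TPM and the 5 globin genes listed at 0.

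A gene was called when its level differed by more than 2-fold with a limma adjusted p under 0.05 over all 12088 genes tested. At 24 hours 190 genes were higher than at 6 hours and 243 were lower, which is 1.57% and 2.01% of the genes tested (3.58% together). At any fold, 1735 genes (14.4%) were higher and 2354 (19.5%) lower at the same adjusted p. The median change of all genes was -0.03. All 433 called genes had libraries that did not overlap between the times, as had 63.8% of all genes tested. Among the 908 genes with a mean of at least 100 TPM, 22 were called higher and 32 lower.

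The basal and 1-hour libraries, which the call did not use, can be set beside the levels of the called genes. The median over the 190 genes called higher was 7.66 and 8.31 TPM in the basal libraries, 8.0 and 7.94 TPM at 1 hour, 7.18 and 6.83 TPM at 6 hours, and 25.5 and 23.2 TPM at 24 hours. The median over the 243 genes called lower was 20.5 and 20.8 TPM under basal conditions, 23.4 and 24.4 TPM at 6 hours, and 8.35 and 7.79 TPM at 24 hours. The genes were chosen by their 24- and 6-hour libraries, so the gap between these times is a description, and the medians do not show single genes that had already moved by 6 hours.

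**Figure D1:**
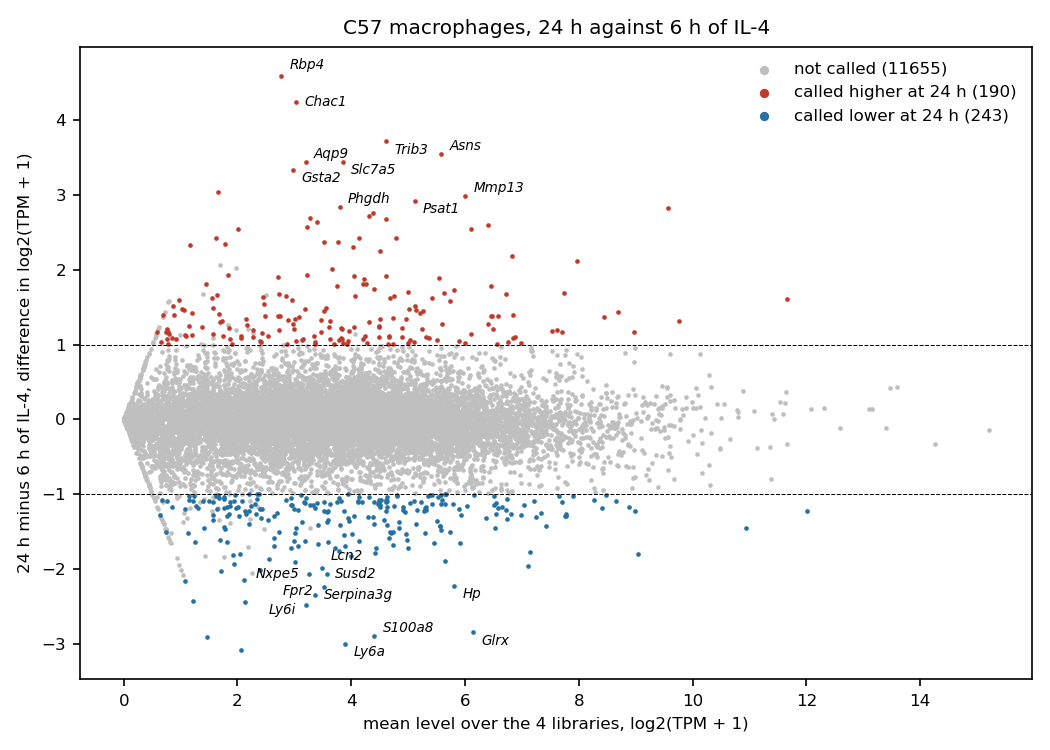
Each point is 1 of the 12088 genes tested, with its mean level over the 4 C57 libraries in log2(TPM + 1) on the x axis and the difference between 24 and 6 hours of IL-4 on the y axis. The 190 genes called higher are red and the 243 called lower are blue, dashed lines mark a 2-fold difference, and the 10 largest rises and falls among genes reaching a mean of 10 TPM are named.

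Genes of the amino acid response made up much of the top of the list. Of the 10 largest rises, 6 were genes of this response, namely Chac1, Trib3, Asns, Slc7a5, Psat1 and Phgdh. Their common regulator ATF4 is made when the kinases of the integrated stress response, for example GCN2 on amino acid shortage, slow general translation. ATF4 then raises genes that synthesize, import and charge amino acids, together with factors that end the response. The list for this response held 32 genes, of which Vldlr and Pycr1 did not pass the filter on low values. Of the 30 tested, 26 were called higher and none lower, with a median change of 1.59, beside 1.57% of all genes called higher and a median of -0.03. Of the other 4, Wars, Tars and Atf5 were higher by under 2-fold and Slc7a11 did not pass the test.

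The promoters of 4 of these genes are shown because each holds, in the 250 bases before its RefSeq start (GRCm38, the build of the tables), the core letters of the element bound by ATF4 with C/EBP partners. The letters TGATGNAA on either strand are in capitals, and each sequence is written 5′ to 3′ on the strand of its gene. Chac1, whose product degrades glutathione, lies on the plus strand and its window is chr2:119350992-119351241; Asns, asparagine synthetase, lies on the minus strand at chr6:7693210-7693459. The windows of the alanyl- and glycyl-tRNA synthetases Aars and Gars are chr8:111033592-111033841 and chr6:55037751-55038000, both on the plus strand.
Chac1: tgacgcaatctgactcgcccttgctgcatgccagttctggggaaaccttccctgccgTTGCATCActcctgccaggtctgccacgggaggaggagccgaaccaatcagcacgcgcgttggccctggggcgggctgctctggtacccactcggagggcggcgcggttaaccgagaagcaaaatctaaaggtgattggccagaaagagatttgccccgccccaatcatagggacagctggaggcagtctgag
Asns: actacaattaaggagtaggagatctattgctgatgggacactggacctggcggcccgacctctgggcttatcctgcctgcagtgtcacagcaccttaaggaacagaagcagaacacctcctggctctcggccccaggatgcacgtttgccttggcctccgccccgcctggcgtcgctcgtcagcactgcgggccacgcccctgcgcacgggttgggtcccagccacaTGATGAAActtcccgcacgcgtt
Aars: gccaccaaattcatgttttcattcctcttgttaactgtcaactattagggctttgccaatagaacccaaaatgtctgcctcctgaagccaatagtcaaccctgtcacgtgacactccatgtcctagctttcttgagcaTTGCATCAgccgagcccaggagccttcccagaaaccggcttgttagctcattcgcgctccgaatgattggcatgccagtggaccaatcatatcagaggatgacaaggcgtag
Gars: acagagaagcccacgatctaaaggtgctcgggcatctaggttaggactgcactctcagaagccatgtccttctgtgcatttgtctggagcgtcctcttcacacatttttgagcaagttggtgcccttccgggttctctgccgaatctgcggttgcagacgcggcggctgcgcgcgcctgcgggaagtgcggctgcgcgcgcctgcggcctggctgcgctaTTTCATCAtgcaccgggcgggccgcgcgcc

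The motif was chosen after the values were seen, and a match is a description and not a site. The amino acid list was made of genes of the ATF4 response, so its share of matches describes the list and not these libraries. Over windows of 300 bases, 250 before and 50 after the start, 9143 of the 12088 genes tested had a promoter in the RefSeq table, and 2.14% of these held the letters. They were found in 9 of 25 promoters of the amino acid list (36%), in 15 of 145 promoters of genes called higher (10.3%) and in 4 of 185 of genes called lower (2.16%). Outside the amino acid list, 8 of 123 promoters of genes called higher (6.5%) held them, among them those of Pck2 and Slc1a4, a serine and alanine transporter gene. The related genes Bcl2a1a and Bcl2a1d, counted separately there, held the same letters at the same place. Slc7a11 and Tars held the letters and were not called, so the letters and the call did not go together gene by gene.

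Among the factors and sensors of the response, 8 of 9 tested genes were called higher, with a median of 2.12. Atf4 itself measured 112 and 126 TPM at 6 hours and 514 and 522 TPM at 24 hours, a difference of 2.12 ± 0.06 (SE, limma adjusted p = 7.4e-10). Its basal level was 140.4 and 144 TPM, so the 24-hour libraries alone were high. Chac1 rose from 0.850 and 0.905 TPM to 34 and 35.3 TPM, by 4.25 ± 0.16 (SE, limma adjusted p = 4.9e-09). Trib3, a pseudokinase that restrains ATF4, rose from 5.58 and 5.97 TPM to 91.8 and 84.5 TPM, by 3.72 ± 0.12 (SE, limma adjusted p = 8.9e-10). Ddit3, the factor CHOP, rose from 32.7 and 34.2 TPM to 205 and 211 TPM, by 2.60 ± 0.10 (SE, limma adjusted p = 5.7e-09). In each of these genes both 24-hour libraries were above both 6-hour libraries by several-fold. Sesn2, an inhibitor of the growth kinase mTORC1 that senses leucine, rose from 6.69 and 7.30 TPM to 54.8 and 51.2 TPM, by 2.76 ± 0.10 (SE, limma adjusted p = 2.9e-09). The range of the log2 differences in these roles was 0.27 (Atf5) to 4.25 (Chac1).

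All 7 tested genes of amino acid synthesis and folate metabolism were called higher, with a median of 2.54. Asns rose from 13.8 and 12.3 TPM to 167 and 160.1 TPM, by 3.55 ± 0.17 (SE, limma adjusted p = 2.1e-08). The first enzyme of serine synthesis, Phgdh, rose from 4.20 and 4.19 TPM to 38.2 and 34.5 TPM, by 2.84 ± 0.09 (SE, limma adjusted p = 1.4e-09). Psat1, the next enzyme of the same pathway, rose from 11.6 and 11.5 TPM to 97.3 and 91.5 TPM, by 2.92 ± 0.09 (SE, limma adjusted p = 7.4e-10). The last enzyme, Psph, was also called, with the smaller difference of 1.49. Mthfd2, a mitochondrial enzyme of folate metabolism, rose from 27.7 and 27.5 TPM to 165 and 167 TPM, by 2.54 ± 0.10 (SE, limma adjusted p = 5.7e-09). Its basal level of 45.6 and 45 TPM lay between those at 6 and 24 hours.

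Of 5 transporters 4 were called higher. Slc7a5, the light chain of the large neutral amino acid transporter LAT1, rose from 3.96 and 2.83 TPM to 48.1 and 45.1 TPM, by 3.45 ± 0.16 (SE, limma adjusted p = 1.8e-08). Its heavy chain Slc3a2 rose less, from 145 and 133 TPM to 319.9 and 308 TPM, by 1.17 ± 0.05 (SE, limma adjusted p = 1.5e-08). Slc7a1, which carries arginine and other cationic amino acids, rose from 6.60 and 6.91 TPM to 51.7 and 48.1 TPM, by 2.71 ± 0.09 (SE, limma adjusted p = 9.1e-10). The cystine transporter Slc7a11 is a target of both ATF4 and NRF2. It measured 40.1 and 39.6 TPM and 47.8 and 47 TPM, with a difference of 0.24 ± 0.14 (SE, limma adjusted p = 0.20) whose 95% interval was -0.05 to 0.54.

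The tRNA synthetases moved together and less: 7 of 9 were called, and all 9 passed the test at any fold, with differences from 0.71 (Wars) to 1.68 (Aars). Aars rose from 59.6 and 56.1 TPM to 193 and 181 TPM. Gars rose from 52 and 55.6 TPM to 139 and 144 TPM, by 1.38 ± 0.05 (SE, limma adjusted p = 4.4e-09). Tars measured 27.4 and 30.9 TPM and 49.9 and 50.7 TPM, under 2-fold at 0.77 ± 0.08 (SE, limma adjusted p = 9.7e-06).

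In C57 the endoplasmic reticulum chaperones went the other way. Of 20 genes of the unfolded protein response, 1 was called higher and 3 lower, beside 1.57% and 2.01% of all genes. At any fold 15 (75% of them) were lower, where 19.5% of all genes were. Ppp1r15a, the phosphatase subunit GADD34 that reverses the translation block, was called higher, at 31.2 and 28.7 TPM and then 90.8 and 92.7 TPM. Hspa5, the chaperone BiP, fell from 544 and 639.6 TPM to 263 and 289 TPM, a log2 change of -1.09 ± 0.07 (SE, limma adjusted p = 2.1e-07). Without 6-hour replicate 2 its difference was -0.98 and it was not called. Manf, a secreted stress protein, fell from 54.5 and 57.8 TPM to 20.8 and 20.5 TPM, a log2 change of -1.40 ± 0.07 (SE, limma adjusted p = 3.7e-08). Pdia4, a protein disulfide isomerase, fell from 298 and 309.9 TPM to 134 and 147 TPM, and at 24 hours it was still above its basal 68.2 and 65.8 TPM. In Egr2flfl none of the 20 was called, and 12 were higher and 2 lower at any fold (6.69% and 21.2% of all genes). SPRET had none called between 6 and 24 hours, with 10 higher and none lower at any fold. In SPRET 2732 of 12088 genes passed in either direction. The separate C57 libraries at 24 hours against basal had 1 called higher. At any fold 11 were higher and 3 lower there (15% and 20.5% of all genes).

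The rise of the amino acid genes was tested against SPRET and set beside other libraries. In SPRET, none of the 30 genes was called higher by limma between 6 and 24 hours (84 genes, 0.695% of all, were), 10 were higher and 4 lower at an unadjusted p under 0.05, and the SPRET change was lower than the C57 change by more than 2-fold in 25 (269 genes, 2.23% of all, were). The C57 libraries that put these genes at the top enter that difference too. For Slc7a5, SPRET measured 3.31 and 4.88 TPM at 6 hours and 3.68 and 3.32 TPM at 24 hours, and its change differed from that in C57 by -3.61 ± 0.23 (SE, limma adjusted p = 6.6e-07). In Egr2flfl macrophages, which share no library with the time course, none was called at more than 2-fold (111 genes, 0.919% of all, were higher); 7 were higher and 1 lower at any fold (6.69% and 21.2% of all), 9 and 2 at an unadjusted p under 0.05, with a median of 0.11. Asns measured 26.6 and 29.3 TPM and 38 and 37.6 TPM there, and Atf4 134 and 142 TPM and 178 and 185 TPM. The tables were scaled separately, so the C57 and Egr2flfl changes were not tested against each other.

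Between basal and 24 hours in the separate C57 libraries of the 5-strain experiment, 9 of the 30 were called higher (271 genes, 2.28% of all, were), and 28 were higher and 1 lower at any fold (15% and 20.5% of all). Chac1 measured 0.506, 0.426 and 0.295 TPM under basal conditions and 5.14, 4.60 and 3.25 TPM at 24 hours, a difference of 1.91 ± 0.16 (SE, limma adjusted p = 2.4e-10). Asns measured 14.8, 13.9 and 10.7 TPM and 39.8, 35.1 and 40.6 TPM. The 24-hour level of Asns in the time course was 167 and 160.1 TPM, and the tables were not tested against each other.

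**Figure D2:**
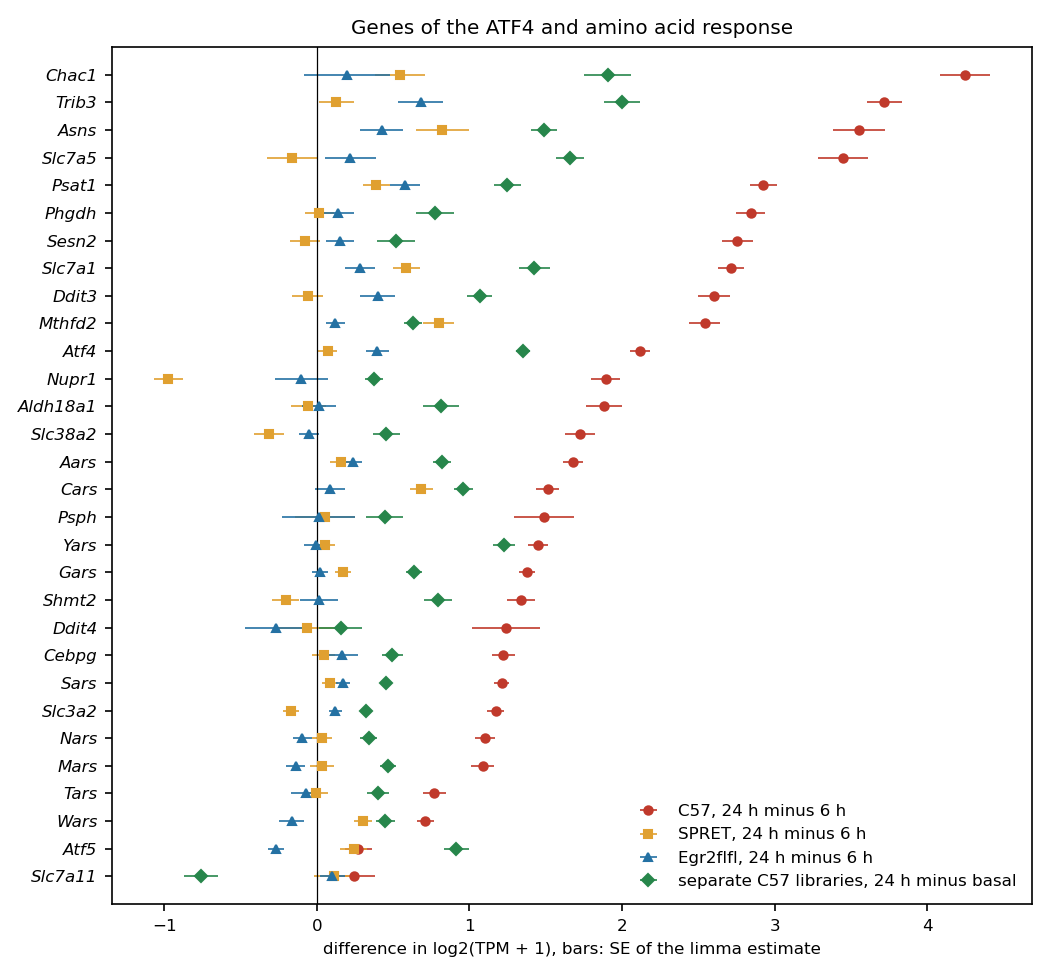
Each row is 1 of the 30 genes tested of the ATF4 and amino acid response, and each marker is the difference in log2(TPM + 1) in 1 comparison, with its SE as a bar. The C57 late phase (red circles) runs from 0.24 for Slc7a11 to 4.25 for Chac1, while the late phases of SPRET (orange squares) and Egr2flfl (blue triangles) stay below 1 and the separate C57 libraries at 24 hours against basal (green diamonds) mostly lie between.

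The effector genes of alternative activation were heterogeneous. Of 25 tested, 8 were called higher and 1 lower, beside 1.57% and 2.01% of all genes. The median was 0.39, beside -0.03 for all genes. Rbp4, a carrier of retinol, had the largest rise of all named genes, from 0.619 and 0.192 TPM to 37 and 28.7 TPM, by 4.60 ± 0.24 (SE, limma adjusted p = 3.5e-08). Chil3, the chitinase-like protein Ym1, rose from 276 and 292 TPM to 2034 and 2022 TPM, by 2.83 ± 0.20 (SE, limma adjusted p = 5.3e-07); reads may be shared with its near copy Chil4. Mmp13, a collagenase, rose from 21.7 and 22 TPM to 173 and 187 TPM, by 2.98 ± 0.12 (SE, limma adjusted p = 5.7e-09). These 3 genes rose in Egr2flfl as well, by 5.02, 3.17 and 3.26 (limma adjusted p = 1.2e-08, 1.2e-07 and 6.7e-08). The receptor gene Flt1 was 0.221 and 0.210 TPM under basal conditions, 4.21 and 3.43 TPM at 6 hours and 16.8 and 17.8 TPM at 24 hours. The macrophage elastase Mmp12, already at 1804 and 1889 TPM at 6 hours, rose to 5553 and 5707 TPM, by 1.61 ± 0.09 (SE, limma adjusted p = 7.5e-08). Fibronectin (Fn1) rose from 14 and 14.6 TPM to 31.8 and 31.7 TPM.

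Arg1 and the transporter gene Slc7a2, 2 known IL-4 targets of arginine metabolism, did not pass the 2-fold limit. Arg1, arginase 1, climbed from 77 and 90.8 TPM under basal conditions to 2553 and 2592 TPM at 6 hours. At 24 hours it was 1793 and 2156 TPM, a difference of -0.39 ± 0.18 (SE, limma adjusted p = 0.12) with a 95% interval of -0.78 to 0.01. In SPRET it rose over the same interval from 178 and 166 TPM to 579 and 472 TPM, and the SPRET change exceeded that of C57 by 1.99 ± 0.26 (SE, limma adjusted p = 0.00014). In Egr2flfl it rose from 1200.3 and 1215 TPM to 3478 and 3411 TPM. The arginine transporter Slc7a2 measured 207 and 210.1 TPM and 328 and 340.0 TPM, higher by 0.68 ± 0.06 (SE, limma adjusted p = 5.9e-06) and so under 2-fold.

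The homeobox gene Msx3 was the effector that fell. It went from 1.25 and 1.72 TPM under basal conditions to 36.6 and 41.2 TPM at 6 hours and back to 9.60 and 11.5 TPM at 24 hours, a log2 change of -1.79 ± 0.14 (SE, limma adjusted p = 1.3e-06). In Egr2flfl it measured 29.2 and 27.9 TPM and 36.8 and 37.4 TPM, with no fall. In SPRET it was at most 0.127 TPM at these times.

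Of 17 genes of the IL-4 receptor pathway, Socs1 alone was called, and lower, beside 2.01% of all genes called lower. At any fold 9 of the 17 (52.9%) were lower and 1 was higher, with a median of -0.23, where 19.5% of all genes were lower. Socs1, a feedback inhibitor of JAK kinases, was 155 and 220.1 TPM at 1 hour, 68.5 and 85.2 TPM at 6 hours and 22.1 and 34.9 TPM at 24 hours, a late fall of -1.43 ± 0.31 (SE, limma adjusted p = 0.0035). All 24-hour values were above the basal 1.74 and 4.79 TPM. In Egr2flfl Socs1 fell by 1.02 (limma adjusted p = 0.00079).

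Of 32 transcription factors of the programme, 3 were called higher and none lower, beside 1.57% and 2.01% of all genes. Pparg, the lipid-sensing nuclear receptor, measured 8.69 and 9.39 TPM under basal conditions, 29.3 and 30.7 TPM at 6 hours and 77.1 and 70.6 TPM at 24 hours, a late rise of 1.27 ± 0.12 (SE, limma adjusted p = 6.3e-06). Klf4, a cofactor of STAT6, rose from 11.6 and 11.4 TPM to 46.7 and 46 TPM, by 1.92 ± 0.05 (SE, limma adjusted p = 4.7e-10). Hivep3 rose from 4.72 and 3.85 TPM to 10.9 and 11.3 TPM, but was 4.22 and 5.20 TPM and 4.21 and 4.13 TPM in Egr2flfl. Egr2 measured 168 and 165 TPM and 157 and 166 TPM, with a difference of -0.04 and a 95% interval of -0.17 to 0.09, against basal levels of 63.2 and 64.9 TPM. Its raised level thus showed no late change beyond the spread. In Egr2flfl none of the 31 factors tested was called, and the largest late rise was 0.74. SPRET had 1 of the 32 called higher and none lower.

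Other genes singled out by the study moved less. Ripk2, a kinase of innate sensing, measured 35.6 and 38 TPM and 38.3 and 46.4 TPM. Treml2 measured 11.7 and 12.5 TPM and 10.9 and 11.6 TPM. Neither passed the test (limma adjusted p = 0.082 and 0.53). Btbd11, at 0.995 and 0.677 TPM and 2.46 and 2.16 TPM, was higher by 0.86 ± 0.16 (SE, limma adjusted p = 0.0011), under 2-fold.

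**Figure D3:**
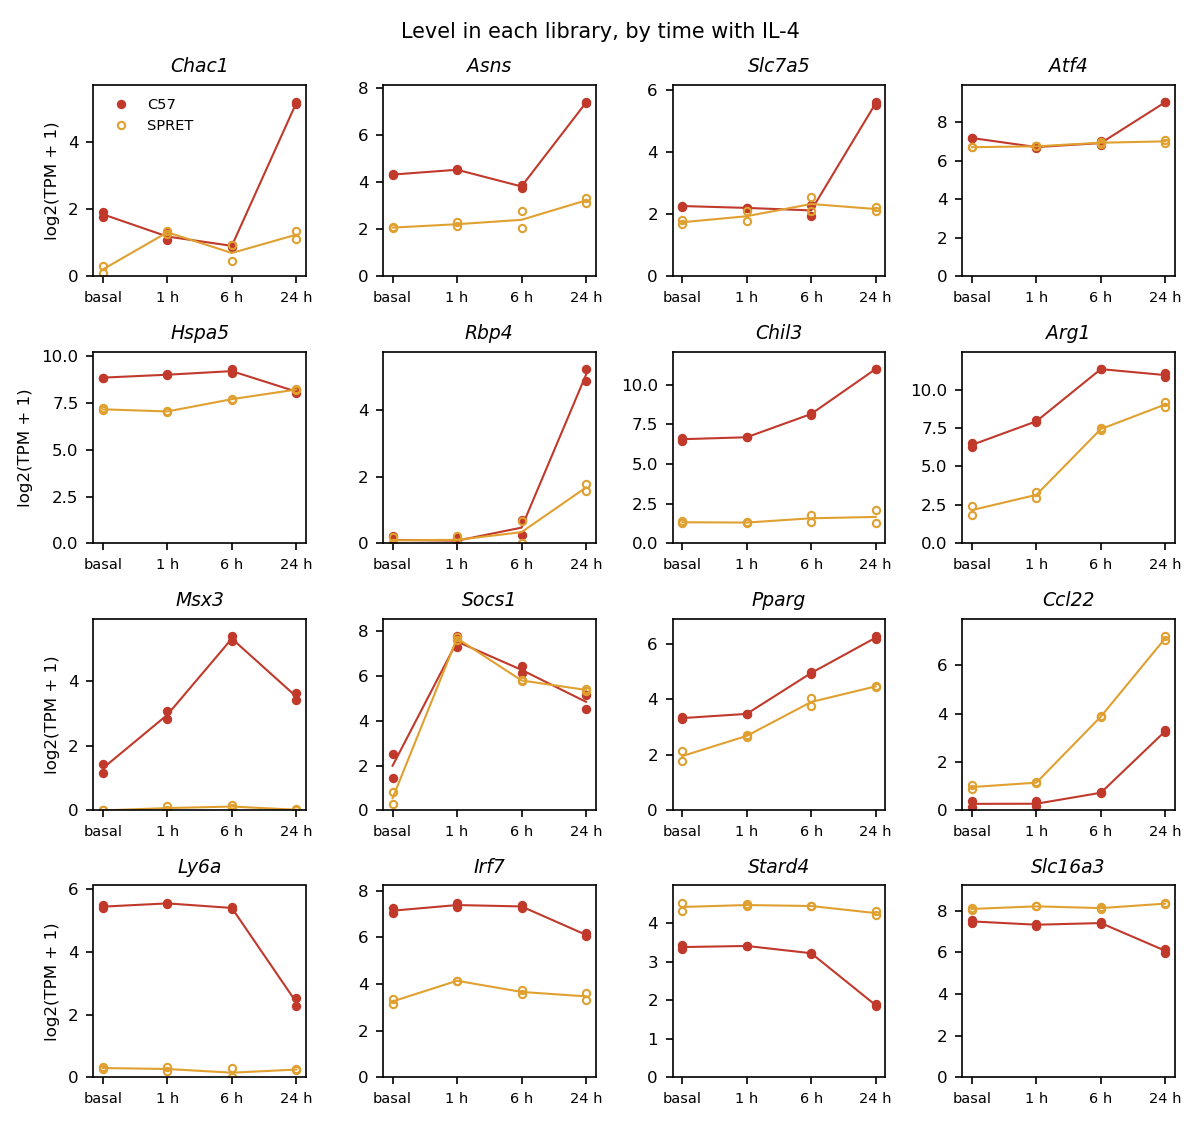
Each panel is 1 gene, with log2(TPM + 1) in each library on the y axis and basal, 1, 6 and 24 hours of IL-4 on the x axis, spaced evenly and not to scale; C57 libraries are filled red, SPRET libraries open orange, and lines join the means of 2 libraries. Chac1, Asns, Slc7a5 and Atf4 are high in C57 at 24 hours only, and Ly6a, Stard4 and Slc16a3 drop at 24 hours in C57. Arg1 is somewhat lower in C57 at 24 than at 6 hours, a difference that did not pass the test.

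Among 20 chemokines 2 were called higher and 4 lower, beside 1.57% and 2.01% of all genes. Ccl22, a ligand of CCR4, was near 0 until 6 hours (0.632 and 0.686 TPM) and reached 8.48 and 8.94 TPM, a rise of 2.55 ± 0.12 (SE, limma adjusted p = 2.0e-08). In SPRET it was far higher, at 13.6 and 13.8 TPM and then 148 and 130.0 TPM. Ccl24, an eotaxin that attracts eosinophils, was called at 1.48 and 1.79 TPM and 4.05 and 4.54 TPM, with a difference of 1.01, and was not called without 6-hour replicate 1 (0.92) or 24-hour replicate 2 (0.94).

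In Egr2flfl 6 of 18 chemokines were called higher and none lower (0.919% and 1.1% of all genes). SPRET had 4 of 20 called higher and none lower (0.695% and 1.16% of all genes). The chemokines that fell in C57 attract monocytes and neutrophils. Ccl4 fell from 63.9 and 67.5 TPM to 19.7 and 25.1 TPM, a log2 change of -1.52 ± 0.20 (SE, limma adjusted p = 0.00011). Cxcl3 fell from 48.1 and 40.0 TPM to 17.9 and 12.3 TPM, a log2 change of -1.50 ± 0.17 (SE, limma adjusted p = 3.6e-05). Ccl12 went from 32.8 and 33 TPM to 15.8 and 13 TPM in C57, whereas in Egr2flfl it rose from 13.8 and 22.9 TPM to 40.5 and 47.7 TPM. The fall of Ccl12 in C57 (limma adjusted p = 0.0062) did not pass the test without 24-hour replicate 2, and that of Ppbp, at 5.47 and 8.87 TPM and 2.47 and 2.46 TPM, lost its call without 6-hour replicate 2 (-0.90).

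Of 10 receptors for chemoattractants, 2 were called higher, Ccrl2 among them, and C5ar1 was called lower, beside 1.57% and 2.01% of all genes. The complement C5a receptor C5ar1 fell from 75.6 and 67.8 TPM to 26.4 and 28.3 TPM, a log2 change of -1.36 ± 0.09 (SE, limma adjusted p = 3.5e-07). In Egr2flfl it was 62 and 54.5 TPM and 43.4 and 46.4 TPM.

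Inflammatory and innate sensing genes were mostly lower. Of 30 tested, 2 were called higher and 8 lower, beside 1.57% and 2.01% of all genes. At any fold 17 were lower, where 19.5% of all genes were, and the median was -0.45. Fpr2, a formyl peptide receptor, fell from 21.1 and 27.1 TPM to 3.25 and 5.53 TPM, a log2 change of -2.24 ± 0.24 (SE, limma adjusted p = 1.9e-05). Its basal level was 57.8 and 54.6 TPM, so the fall was under way by 6 hours. Haptoglobin (Hp) fell from 129 and 113 TPM to 23.6 and 26.3 TPM, a log2 change of -2.23 ± 0.10 (SE, limma adjusted p = 8.2e-09). Lcn2, which binds bacterial siderophores, fell from 20.3 and 22.6 TPM to 4.26 and 5.01 TPM, a log2 change of -1.99 ± 0.27 (SE, limma adjusted p = 0.00013). Tlr9, the sensor of CpG DNA, fell from 5.87 and 4.64 TPM to 1.08 and 0.916 TPM. The prostaglandin synthase Ptgs2 was called higher, at 9.55 and 9.83 TPM and then 20.2 and 21.8 TPM, with a difference of 1.04, close to the 2-fold limit. Il6 also passed, at 0.265 and 0.164 TPM and 1.42 and 1.48 TPM, which are low levels. Neither was called without 24-hour replicate 2 (0.99 for Ptgs2, and just under 1 for Il6), nor was Il6 without 6-hour replicate 2 (0.95).

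Most interferon-stimulated genes were lower at 24 hours, few of them by more than 2-fold. Of 43 tested, none was called higher and 7 lower, beside 2.01% of all genes called lower. At any fold 29 (67%) were lower, where 19.5% of all genes were, and the median was -0.57. Ifit3, an antiviral effector, fell from 10.6 and 9.05 TPM to 1.97 and 3.32 TPM, a log2 change of -1.59 ± 0.21 (SE, limma adjusted p = 0.00010). Irf7, the factor that amplifies interferon production, fell from 168 and 151 TPM to 64.7 and 71.3 TPM, a log2 change of -1.21 ± 0.12 (SE, limma adjusted p = 6.5e-06). Mx1 fell from 4.21 and 3.25 TPM to 0.959 and 0.762 TPM, and Ifit2 from 23.4 and 22.9 TPM to 7.14 and 10.5 TPM. In Egr2flfl 5 of 44 were called lower (1.1% of all genes were) and 36 were lower at any fold (21.2% of all), with a median of -0.63. There Irf7 fell from 111 TPM in both libraries to 32.8 and 26.3 TPM.

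In antigen presentation, 2 of 18 genes were called lower and none higher, beside 2.01% and 1.57% of all genes. The costimulatory receptor Cd40 fell from 23.4 and 24.4 TPM to 8.35 and 9.05 TPM, a log2 change of -1.36 ± 0.11 (SE, limma adjusted p = 1.4e-06), which returned it near its basal 7.88 and 7.68 TPM. Psmb9, a subunit of the immunoproteasome, was at 60.8 and 56.3 TPM and then 27.4 and 29.5 TPM, with a difference of -1.02, and was not called without replicate 1 of either time (-0.96 in both cases).

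Among the largest falls were also 6 genes that belong to none of the lists. Ly6a, the surface protein Sca-1, fell from 40.0 and 41.9 TPM to 3.79 and 4.74 TPM, a log2 change of -3.00 ± 0.12 (SE, limma adjusted p = 5.7e-09). Its relative Ly6i fell from 20.4 and 21.5 TPM to 2.29 and 3.64 TPM; the Ly6 genes are near copies, so the assignment of reads between them is uncertain. Glrx, glutaredoxin, had risen from 59.8 and 65.7 TPM under basal conditions to 176 and 200.1 TPM at 6 hours before it fell to 24 and 26.6 TPM, a log2 change of -2.85 ± 0.07 (SE, limma adjusted p = 4.7e-10). Serpina3g, a protease inhibitor with several near copies, likewise went from 0.183 and 0.651 TPM to 20.9 and 23.7 TPM and then to 2.38 and 5.13 TPM. Nxpe5 fell from 18.7 TPM in both libraries to 4.22 and 3.22 TPM, and Susd2 from 23.6 and 23.1 TPM to 5.16 and 4.50 TPM. All 6 of these genes were lower at 24 than at 6 hours in Egr2flfl too, with differences from -2.90 (Serpina3g) to -0.78 (Nxpe5).

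S100a8, a calcium-binding protein abundant in neutrophils and monocytes, fell from 62.4 and 51.7 TPM to 6.02 and 7.52 TPM, a log2 change of -2.90 ± 0.18 (SE, limma adjusted p = 1.8e-07). It was the only neutrophil marker above 1 TPM, and the summed level of the 12 markers went from between 55.1 and 64.7 TPM at 6 hours to between 6.69 and 8.96 TPM at 24 hours. In these bulk samples fewer cells of a type and less RNA per cell cannot be told apart. Of the macrophage markers 7 of 10 were lower and 1 higher at any fold, with a median of -0.47, where 19.5% of all genes were lower. The 1 marker called was the Fc receptor Fcgr1, which fell from 16.6 and 16.2 TPM to 4.62 and 6.56 TPM, a log2 change of -1.42 ± 0.15 (SE, limma adjusted p = 1.5e-05).

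Rises outside the lists included Aqp9 and Gsta2. Aqp9, a channel for water and glycerol, rose from 1.84 and 1.74 TPM to 28.6 and 30.1 TPM, by 3.44 ± 0.13 (SE, limma adjusted p = 3.8e-09). Gsta2, a glutathione transferase with near copies, rose from 2.02 and 1.05 TPM to 25.3 and 23.1 TPM, by 3.34 ± 0.20 (SE, limma adjusted p = 1.4e-07). In Egr2flfl Gsta2 rose by 3.32, and Aqp9 measured 4.37 and 4.75 TPM and 6.88 and 7.11 TPM. In all, 54 of the 190 genes called higher and 55 of the 243 called lower belonged to 1 or more of the 28 functional lists.

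**Figure D4:**
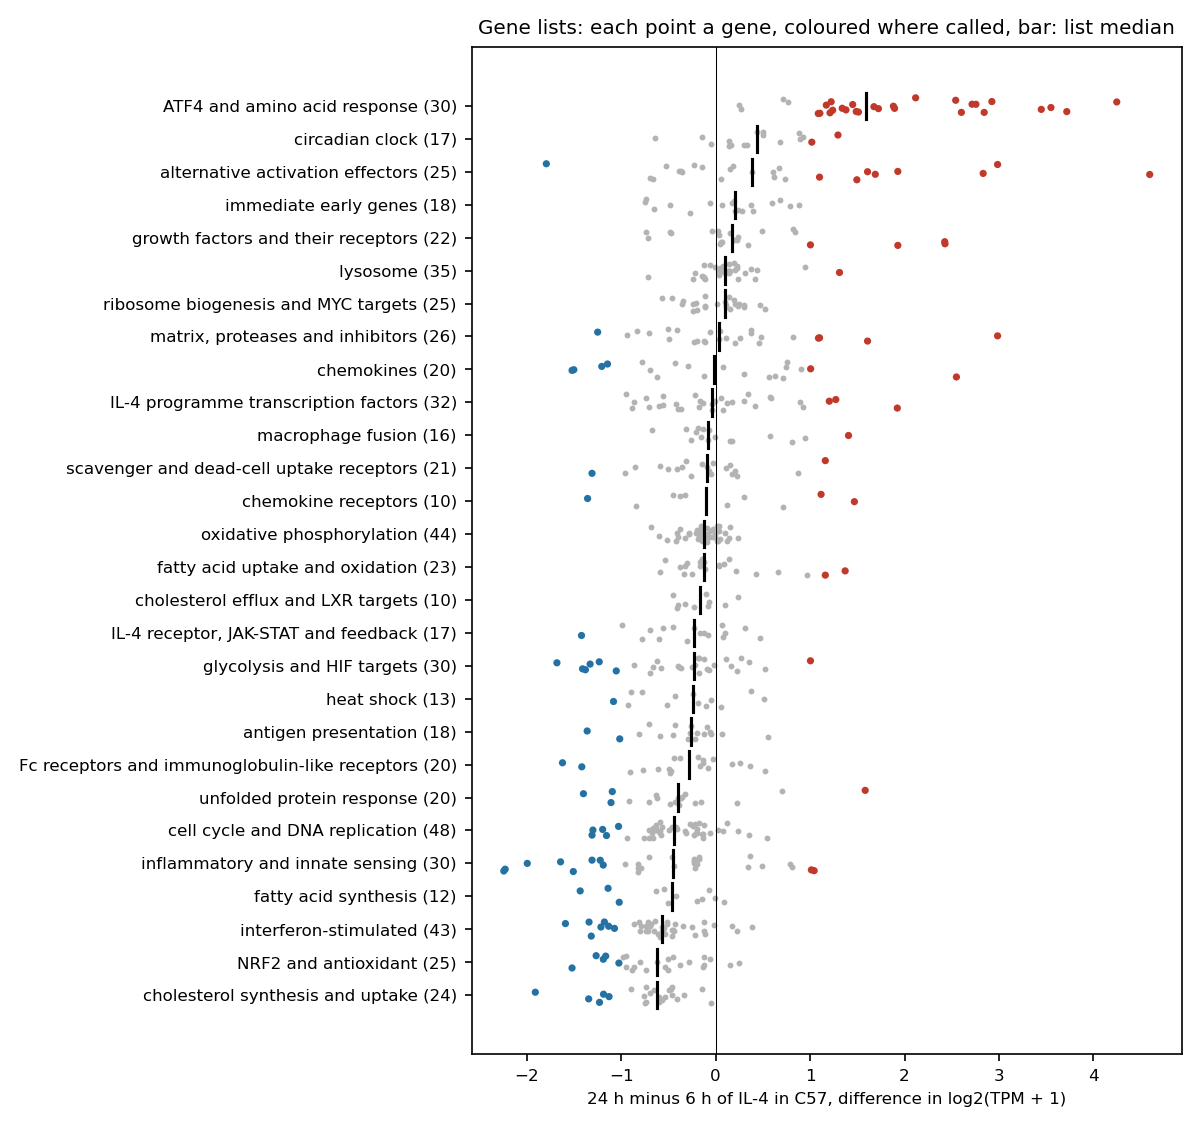
Each point is a tested gene of 1 of 28 functional lists, with its difference between 24 and 6 hours of IL-4 in C57 on the x axis in log2(TPM + 1); the number tested follows each list's name, red and blue points were called higher and lower, vertical jitter carries no meaning, and the black bar is the list's median. The medians run from 1.59 for the amino acid list to -0.63 for cholesterol synthesis and uptake.

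Genes of sterol synthesis had the lowest median. Genes of this pathway are raised by SREBP2 when membrane cholesterol is low. Of 24 genes tested, none was called higher and 5 lower, beside 2.01% of all genes called lower. At any fold 20 (83%) were lower, where 19.5% of all genes were, and the median was -0.63. Stard4, a sterol carrier, fell from 8.21 and 8.37 TPM to 2.57 and 2.74 TPM, a log2 change of -1.34 ± 0.08 (SE, limma adjusted p = 1.2e-07), and Acat2 from 5.99 and 6.17 TPM to 2.26 and 1.79 TPM. In Egr2flfl limma called none (6 were higher and 3 lower at an unadjusted p under 0.05) and the median was 0.03. Between basal and 24 hours in the separate C57 libraries none was called. At any fold 16 (66.7%) were lower there and 1 was higher (20.5% and 15% of all genes), with a median of -0.43. The SPRET change was higher than that of C57 by more than 2-fold in 7 of the 24 (236 genes, 1.95% of all, were).

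A few genes of fatty acid synthesis fell, and a few of uptake and storage rose. Among the synthesis genes 3 of 12 were called lower and none higher, beside 2.01% and 1.57% of all genes. Fasn, fatty acid synthase, fell from 18.4 and 16.2 TPM to 7.58 and 7.01 TPM, a log2 change of -1.14 ± 0.10 (SE, limma adjusted p = 3.8e-06). The desaturase Fads2 fell from 4.84 and 4.38 TPM to 1.52 and 0.709 TPM. Me1, at 3.02 and 3.77 TPM and 0.884 and 1.47 TPM, lost its call without 6-hour replicate 2 (-0.90) or 24-hour replicate 1 (-0.83). In Egr2flfl 1 of the 12 synthesis genes was called lower and none higher (1.1% and 0.919% of all genes). SPRET had 1 called higher and none lower (0.695% and 1.16% of all genes). The SPRET change was higher than that of C57 by more than 2-fold in 4 of the 12 (1.95% of all genes). Among the uptake and oxidation genes in C57, 2 of 23 were called higher and none lower, beside 1.57% and 2.01% of all genes. Plin2, which coats lipid droplets, rose from 223 and 209.7 TPM to 557 and 566 TPM, by 1.37 ± 0.06 (SE, limma adjusted p = 1.0e-08). Cd36, which takes up fatty acids and oxidized lipoproteins, rose from 333 and 336 TPM to 762 and 738 TPM, by 1.16 ± 0.05 (SE, limma adjusted p = 6.4e-09). Cd36 rose in SPRET and Egr2flfl by 1.38 and 1.20. None of the 10 cholesterol efflux genes was called in C57, and Abca1 and Abcg1 differed by 0.24 and 0.10. At any fold limma put 1 of the 10 higher and 5 lower, where 14.4% and 19.5% of all genes were.

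In glycolysis and the response to hypoxia 1 of 30 genes was called higher and 6 lower, beside 1.57% and 2.01% of all genes. At any fold 3 were higher and 16 (53.3%) lower, where 14.4% and 19.5% of all genes were. In Egr2flfl none of the 30 was called, and 3 were higher and 13 lower at any fold (6.69% and 21.2% of all genes). SPRET had none called over the same interval, with 10 higher and 2 lower (2732 of 12088 genes passed in either direction). The separate C57 libraries at 24 hours against basal had none called, with 12 higher and 9 lower (15% and 20.5% of all genes). Slc16a3, the lactate exporter MCT4, fell from 177 and 160.4 TPM to 61.9 and 71.2 TPM, a log2 change of -1.33 ± 0.08 (SE, limma adjusted p = 9.1e-08). Aldoc, an aldolase, fell from 46.4 TPM in both libraries to 14.2 and 13.4 TPM, a log2 change of -1.68 ± 0.07 (SE, limma adjusted p = 6.1e-09). The hypoxia targets Egln3 and Bnip3 fell from 22.5 and 20.9 TPM to 5.74 and 9.82 TPM and from 16.4 and 20.3 TPM to 6.17 and 6.66 TPM. Vegfa, another such target, was the gene called higher, at 18 and 17.5 TPM and then 34.7 and 38.6 TPM, with a difference of 1.00 at the 2-fold limit. It was not called without 6-hour replicate 2 (0.99) or 24-hour replicate 2 (0.93).

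Of 25 NRF2 and antioxidant genes, 5 were called lower and none higher, beside 2.01% of all genes called lower. At any fold 18 (72%) were lower, where 19.5% of all genes were, and the median was -0.62. Hmox1, haem oxygenase, fell from 529.9 and 498 TPM to 224 and 225 TPM, a log2 change of -1.19 ± 0.05 (SE, limma adjusted p = 6.6e-09). Gclm, which limits glutathione synthesis, fell from 163 and 183 TPM to 72.2 and 70.3 TPM, a log2 change of -1.27 ± 0.07 (SE, limma adjusted p = 6.4e-08). Gsta3 fell from 43.2 and 42.6 TPM to 16 and 12.8 TPM, and Nqo1 from 96.7 and 98.6 TPM to 45.3 and 40.8 TPM. At 6 hours against basal in C57, 11 of the 25 were lower and none higher at any fold. In that comparison 2467 of 12088 genes passed in either direction. The separate C57 libraries at 24 hours against basal had 10 called lower (1.53% of all genes were). At any fold 21 were lower and 1 higher there (20.5% and 15% of all genes). In Egr2flfl 2 were called lower late, and 15 were lower and 4 higher at any fold (21.2% and 6.69% of all genes). Hmox1 went up there from 327 and 329.9 TPM to 457 and 423 TPM (limma adjusted p = 9.0e-05), while Gclm fell from 265 and 258 TPM to 125 and 124 TPM.

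Some cell cycle genes were lower at 24 hours, most of those named from low levels. Of 48 tested, 5 were called lower and none higher, beside 2.01% of all genes called lower. At any fold 24 (50%) were lower, where 19.5% of all genes were, and the median was -0.44. Mki67, a marker of dividing cells, fell from 7.16 and 7.11 TPM to 2.54 and 2.55 TPM, a log2 change of -1.20 ± 0.08 (SE, limma adjusted p = 3.3e-07). Ccnd3, a D-type cyclin, fell from 31.9 and 31.6 TPM to 12 and 12.5 TPM, a log2 change of -1.31 ± 0.08 (SE, limma adjusted p = 1.8e-07). Uhrf1, which copies DNA methylation, fell from 4.24 and 4.76 TPM to 1.38 and 1.09 TPM. In Egr2flfl Mki67 was 53 and 55.6 TPM and 33.3 and 37.3 TPM. None of 50 was called there by limma, and 32 were lower at any fold (21.2% of all genes were).

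Genes of several other lists were also called, beside 1.57% of all genes called higher and 2.01% lower. Of 17 clock genes, the repressors Per2 (1.06 and 1.07 TPM, then 4.53 and 3.64 TPM) and Cry1 (8.78 and 9.61 TPM, then 18 and 21.3 TPM) were called higher, Cry1 not without 6-hour replicate 1 (0.96) or 24-hour replicate 2 (0.90). Among growth factors, Gdf15, a stress-induced cytokine, rose from 10.3 and 11.4 TPM to 58.3 and 67.7 TPM, by 2.43 ± 0.22 (SE, limma adjusted p = 3.8e-06). Inhba, a subunit of activin, rose from 7.15 and 6.11 TPM to 40.8 and 39 TPM, by 2.43 ± 0.27 (SE, limma adjusted p = 2.1e-05). The largest late rises of the growth factor list were 1.04 in Egr2flfl and 0.38 in SPRET. Those of the clock list were 0.74 in Egr2flfl and 0.90 in SPRET. Of 35 lysosomal genes the protease Ctsl alone was called in C57, at 552 TPM in both libraries and then 1348 and 1394 TPM. The integrin chain Itgb3, of the fusion list, rose from 68.9 and 71.2 TPM to 188 and 184 TPM, by 1.40 ± 0.09 (SE, limma adjusted p = 3.2e-07). In the scavenger list Marco fell from 232 and 245 TPM to 88.5 and 103 TPM, a log2 change of -1.31 ± 0.14 (SE, limma adjusted p = 1.9e-05). The membrane metalloproteinase Mmp14 fell from 253 and 246 TPM to 102 and 106 TPM. Plaur, the urokinase receptor, rose from 83 and 72.7 TPM to 162 and 171 TPM and was not called without 6-hour replicate 2 (0.99). Siglece, an inhibitory receptor, fell from 12.5 and 13.5 TPM to 3.22 and 3.88 TPM, a log2 change of -1.62 ± 0.11 (SE, limma adjusted p = 3.6e-07).

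Genes that other libraries had called at earlier times were then followed through the late phase. Of 85 genes raised at 1 hour against basal in C57 (0.703% of all), 4 were called higher and 12 lower (14.1%) between 6 and 24 hours. Of 227 tested genes raised at 6 hours against basal in Egr2flfl (240 in all, 1.99%), 11 were higher and 34 lower (15.0%). These shares stand beside the 1.57% and 2.01% of all genes.

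The 24-hour call in the separate C57 libraries can be set beside the late phase in the same way. Of 262 tested genes raised there against basal, 61 (23.3%) were called higher late and 19 (7.25%) lower. Of 177 lowered there (182 in all, 1.53%), 2 were higher and 57 (32.2%) lower. Read from the late phase, 61 of the 188 genes called higher and tested there (32.4%) were raised in those libraries and 57 of 242 called lower (23.6%) were lowered.

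The late phase of Egr2flfl macrophages was the closest match in design without a shared library. It had 111 genes called higher and 133 lower (45.5% higher), a split that became 138 and 90 (60.5%) with median-ratio scaling and 136 and 100 (57.6%) with quantile normalization. The median change of all genes tested there was -0.11. Of the 190 genes called higher in C57, 178 were tested there, and 51 (28.7%) were called higher and none lower. Of the 243 called lower, 241 were tested, and 75 (31.1%) were called lower and 2 higher. Of 103 tested genes raised in Egr2flfl, 51 (49.5%) were raised in C57, and of 124 lowered, 75 (60.5%) were lowered. The changes of the 178 genes had a median of 0.53 in Egr2flfl and those of the 241 a median of -0.69.

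**Figure D5:**
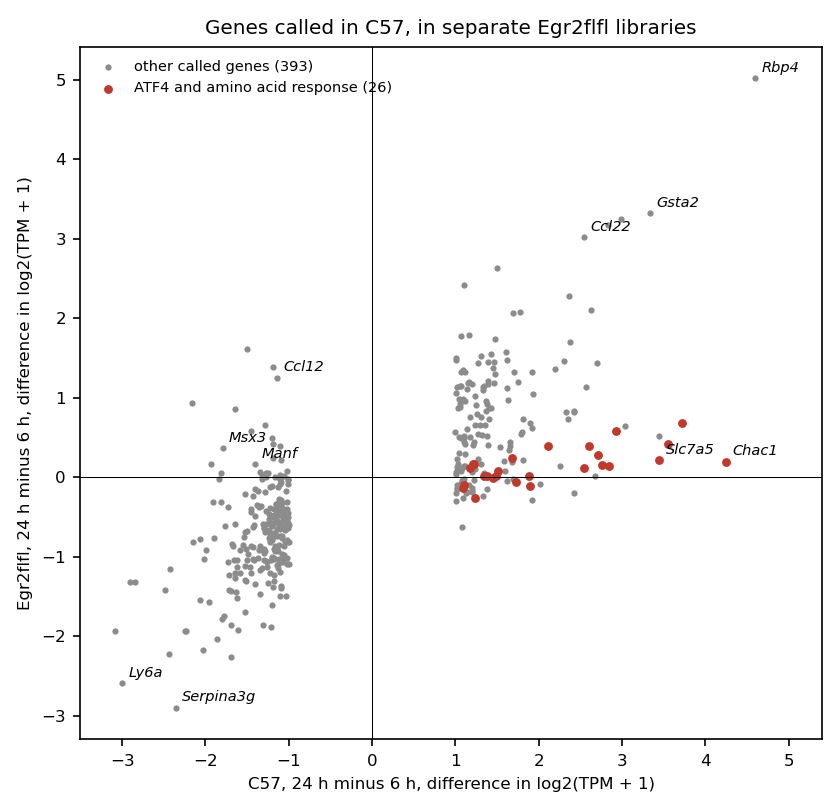
Each point is a gene called in the C57 late phase and tested in the Egr2flfl table, with its late change in C57 on the x axis and in Egr2flfl on the y axis, both in log2(TPM + 1). The 26 amino acid genes (red) lie between -0.26 (Ddit4) and 0.68 (Trib3) on the y axis, while Rbp4, Gsta2 and Ccl22 lie above 3 and Ly6a and Serpina3g below -2.

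SPRET macrophages had 84 genes called higher and 140 lower (1.16% of all) over the same interval. The median over the 190 genes called higher in C57 was 5.06 and 5.37 TPM at 6 hours and 7.95 and 7.90 TPM at 24 hours in SPRET. The SPRET change was lower than that of C57 by more than 2-fold in 124 of the 190 (65.3%), and higher in 116 of the 243 (47.7%). Because the C57 changes that chose these genes are also part of the difference, these counts are given as a description. Genes with the largest differences among those called in C57 were Aqp9 (-3.87), Chac1 (-3.70) and Slc7a5 (-3.61) on the lower side. Aqp9 was 14.4 and 11.9 TPM at 6 hours and 9.63 and 9.26 TPM at 24 hours in SPRET. On the higher side were Mir5617, S100a8 (3.24) and Ly6a (3.10). S100a8 was 60.4 and 60.6 TPM and 68.8 and 86 TPM in SPRET, and Ly6a was at most 0.232 TPM there. Mir5617, listed at 0 in both C57 libraries at 24 hours and at 6.79 and 6.32 TPM at 6 hours, has too short a transcript for a firm level.

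Egr2 in the libraries labelled LyzM-Cre Egr2 fl/fl was 3.10 and 5.23 TPM at 6 hours and 4.72 and 7.05 TPM at 24 hours, against 88.4 and 92.5 TPM and 101 and 99.5 TPM in Egr2flfl. The 2 Egr2MKO libraries at 6 hours were the least alike of 16 replicate pairs (r = 0.971 across genes), with Retnla at 24.1 and 254 TPM. The late change differed between the genotypes in 107 genes higher in Egr2MKO (0.886%) and 57 lower (0.472%); these counts were 243 and 150 without 6-hour Egr2MKO replicate 1 and 87 and 53 without replicate 2. Of the genes called in the C57 late phase, 19 of 178 called higher had a lower late change in Egr2MKO, and 21 of 241 called lower had a higher one.

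Rbp4 and Ccl22 rose late in Egr2flfl and little in Egr2MKO. Rbp4 went from 0.284 and 0.400 TPM to 44.8 and 40.2 TPM in Egr2flfl, and in Egr2MKO it was listed at 0 in both libraries at 6 hours and at 0.887 and 0.994 TPM at 24 hours, a difference of -4.06 ± 0.27 (SE, limma adjusted p = 1.2e-05). With a pseudocount of 0.1 TPM this difference was -3.22 and did not pass the test (limma adjusted p = 0.099). Ccl22 was 16.5 and 14.4 TPM at 24 hours in Egr2flfl and 2.42 and 1.62 TPM in Egr2MKO, with a difference in late change of -2.22 ± 0.28 (SE, limma adjusted p = 0.00058). Bok, a relative of BCL2 at low levels (2.52 and 2.32 TPM at 24 hours in Egr2flfl), followed with -1.77. Its own call in C57, from 0.123 and 0.228 TPM to 1.12 and 1.88 TPM, was lost without 24-hour replicate 2 (0.85).

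Ly6a, Serpina3g and C5ar1 had the largest differences in the other direction. Ly6a fell from 74.2 and 67.9 TPM to 11 and 10.9 TPM in Egr2flfl and was 108 and 112 TPM and 72.9 and 63.5 TPM in Egr2MKO, a difference of 1.91 ± 0.16 (SE, limma adjusted p = 4.3e-05). Serpina3g was 129 and 128 TPM and 60.6 and 60.7 TPM in Egr2MKO, and its late fall was smaller there by 1.83 ± 0.20 (SE, limma adjusted p = 0.00023). C5ar1 rose from 81.2 and 90.5 TPM to 199 and 219.9 TPM in Egr2MKO, where Egr2flfl had 43.4 and 46.4 TPM at 24 hours, a difference of 1.64 ± 0.11 (SE, limma adjusted p = 1.7e-05). By limma none of the 30 amino acid genes differed by more than 2-fold between the genotypes, and 7 had a higher late change in Egr2MKO at an unadjusted p under 0.05.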

How the data were processed

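The authors mapped reads with STAR to each strain's genome, shifted positions to mm10 with MMARGE, and deposited TPM from HOMER (exon reads, condensed by gene), with total tags per library. The TPM of a library summed to between 602020 and 624397 over the listed genes. The fold changes and adjusted p-values of the authors' own comparisons, made with DESeq2, were not used. Counts per gene are not analysed here, so no counting interval is given.

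Log2(TPM + 1) values of the 16 time-course libraries (16 Egr2 libraries, 29 of 5 strains) were fitted with limma 3.58.1 in R 4.3.3 (a mean per group, trend), keeping genes that reached 1 TPM in 2 or more libraries of the table. The fit was tested on simulated data. P-values were adjusted by Benjamini-Hochberg over all genes tested. Tables were tested separately. Genes named are the 10 largest rises and falls reaching 10 TPM, up to 4 calls a list in each direction, genes the study singles out, and the 3 largest strain and genotype differences each way; a few others (Sesn2, Aars and the like) were chosen after their values were seen. Some genes named by this rule are not reported here. The members and lists were chosen with earlier results of these data known.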

Additional observations from a re-analysis of the deposited data

Results flagged for a closer look

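The late change of these genes differed between groups in a test of the difference itself, the SPRET minus C57 or Egr2MKO minus Egr2flfl contrast in limma. SPRET was lower than C57 by more than 2-fold in 124 of the 190 genes that rose in C57 and in 25 genes of the amino acid list, and higher in 116 of the 243 that fell. The C57 libraries that chose the genes enter that difference.

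The SPRET minus C57 difference, in log2(TPM + 1), was -3.25 for Rbp4, -3.70 for Chac1, -3.59 for Trib3, -2.73 for Asns and -3.61 for Slc7a5. It was -3.87 for Aqp9, -3.34 for Gsta2 (listed at 0 in SPRET at both times), -2.84 for Mmp13, -2.53 for Psat1 and -2.83 for Phgdh. On the other side it was 3.10 for Ly6a, 3.24 for S100a8, 1.73 for Glrx, 2.31 for Ly6i, 1.71 for Serpina3g and 2.13 for Fpr2. It was 1.77 for Nxpe5, 1.36 for Susd2 and 4.00 for Mir5617. Ly6a, Ly6i and Fpr2 were low in SPRET at both times.

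The Egr2MKO minus Egr2flfl difference was -4.06 for Rbp4, -2.22 for Ccl22 and -1.77 for Bok, and 1.91 for Ly6a, 1.83 for Serpina3g and 1.64 for C5ar1.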

How the results depend on the processing

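With a pseudocount of 5 TPM the C57 late phase gave 90 genes higher and 118 lower, all 90 among the 190, and with 0.1 TPM 401 lower. A limit of 1.5-fold gave 566 and 797. With 5 TPM the SPRET minus C57 counts were 103 and 125, those of Egr2flfl 55 and 45, and those of Egr2MKO minus Egr2flfl 36 and 31. With 0.1 TPM Egr2flfl had 211 lower. The Egr2MKO minus Egr2flfl count of 107 became 68 with median-ratio scaling and 65 with quantile normalization. These settings change the scale or the limit itself. Leaving out 1 library at a time, the C57 counts ranged from 187 to 211 and from 230 to 299, SPRET minus C57 from 219 to 262 and from 254 to 289, Egr2flfl from 95 to 132 and from 121 to 163, and Egr2MKO minus Egr2flfl from 74 to 243 and from 34 to 150. The 243 and 150 came without Egr2MKO 6-hour replicate 1, and the lowest counts of 34 and 36 without an Egr2flfl 24-hour library; the cause was not tested. The amino acid count was 26 without any 1 of the 4 C57 libraries, 24 with 5 TPM, 25 with a filter of 5 TPM and 28 at 1.5-fold. Of the named calls 25 were lost with 5 TPM, 3 with 0.1 TPM (Lcn2, Ccl12 and the genotype difference of Rbp4) and 3 with quantile normalization (Hspa5, Me1 and Psmb9). Quantile normalization turned the sign of Egr2 (0.0405) and Ndufa2 (0.0013), neither of which passed a test. Replicate numbers did not pair the libraries (r of same-numbered deviations from -0.14 to 0.27 over 24 pairs of groups, 0.17 for C57 at 24 and 6 hours). With the replicate number as a block, C57 gave 191 higher and 246 lower, SPRET minus C57 239 and 273, Egr2flfl 110 and 135, and Egr2MKO minus Egr2flfl 104 and 49; the amino acid count was 26. Fitted on the 4 C57 libraries alone, the late phase had 184 genes higher and 244 lower. Of 114 named results 82 kept direction and call under every alternative. Tag totals without counts per gene limit what low genes can show.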

Other observations

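For lists of basic cell functions the counts stand beside 3.58% of all genes called in the C57 late phase. With so low a share nothing is read from a list of this size without a call. At any fold 14.4% of all genes were higher and 19.5% lower. Of 44 subunits of oxidative phosphorylation none was called by limma, and 9 were lower and none higher at any fold, with a median of -0.12. Ndufa1 measured 73.4 and 62.0 TPM at 6 hours and 66.3 and 53.1 TPM at 24 hours. Of 25 genes of ribosome biogenesis none was called, with 4 higher and 5 lower at any fold and a median of 0.10. Of 18 immediate early genes none was called, with 4 higher and 3 lower at any fold. Of 13 heat shock genes Hspa8 alone was called lower, at 211 and 219 TPM and then 107 and 94.0 TPM, and it was just short of the 2-fold limit without 24-hour replicate 2.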
